A study of Mus musculus with 2 samples.

Results

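Genes for chromatin modifiers and remodellers were examined in a list of genomic regions bound by E2F1, a transcription factor known for driving genes of S phase. With earlier results of these data known, the members were chosen by a rule on gene symbols that itself uses no measured value. They are the entries named Kdm, Kat, Hdac, Tet, Chd or Brd with a digit, Setd, Suv, Ezh, Dnmt, Smarc or Mll, together with Eed, Suz12, Uhrf1 and Hells. This rule found 51 genes of the 5594 in the list, in 67 pairs of a peak and a gene of 6887 in all. No peak was named for 2 members, so these are 67 peaks of the 5667. Eed and Suz12 had no entry.

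The data come from primary cultures of hepatocytes of C57Bl6J mice infected with the adenovirus Ad-E2F1, so that E2F1 was overexpressed, and harvested 36 h later. Chromatin pulled down with an antibody against E2F1 was compared with input chromatin of such cells, which carried the same virus. The series text speaks of 2 replicates, each a combination of separate ChIP experiments, but 1 list of peaks was analysed, so no value below has a replicate error and no test between samples was possible. Cells without the vector were not analysed here, and a list of peaks holds no RNA levels by which the cell type could be checked.

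Chromatin modifiers add or remove methyl and acetyl groups on histone tails or methyl groups on DNA, and remodellers use ATP to slide or evict nucleosomes. Several of them act when DNA is copied. Dnmt1 restores methylation on the new strand, guided by Uhrf1, which binds DNA methylated on a single strand, and Hells is a helicase that opens nucleosomal DNA for methylation. Polycomb repressive complex 2 (PRC2), with the methyltransferase Ezh2 and its partners Eed and Suz12, places a repressive methyl mark on histone H3. In adult liver most hepatocytes are out of the cell cycle.

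The strength of a peak is given as the authors' fold, which sets the tags of the ChIP against those the peak caller expected at that place, and the number of tags in the called region is given beside it. Peaks count as promoter peaks where the summit is no more than 1000 bp from the transcription start site (TSS) of the gene. Its position is that of a window of 301 bp around the summit, on mouse build mm9.

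Promoter sequences of 5 members with a promoter peak are shown as examples, 4 with and 1 without a match to the words described here. They were chosen after the matches were known and are not the 5 strongest. The sequences are those of RefSeq on build GRCm38.p6, 250 bases ending just before an annotated start, and cannot be laid base by base over peaks on mm9. Of the 51 members, 41 had an entry in the promoter table. Capitals mark any match, on either strand, to 4 words that follow the known E2F binding sequence. They are the word TTCCCGC, the word TTGGCGC, the word TTCGCGC and lastly the word TTGCCGC. The words share letters and can overlap each other, and a match is not shown to be a binding site. RefSeq gives Uhrf1 a pair of starts 976 bp apart (chr17:56303087-56303336, plus strand and chr17:56304063-56304312, plus strand). Hells (chr19:38930740-38930989, plus strand), Suv39h2 (chr2:3474987-3475236, minus strand) and Suv420h2, now named Kmt5c (chr7:4739877-4740126, plus strand), have 1 start each. Smarcc1 (chr9:110131774-110132023, plus strand) is shown as a strong promoter peak with none of the words.
Uhrf1, first start: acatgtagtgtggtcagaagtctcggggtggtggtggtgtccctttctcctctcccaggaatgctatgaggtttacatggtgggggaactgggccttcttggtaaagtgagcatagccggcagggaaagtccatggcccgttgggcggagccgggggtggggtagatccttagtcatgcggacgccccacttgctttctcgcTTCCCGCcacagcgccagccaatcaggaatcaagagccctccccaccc
Uhrf1, downstream start: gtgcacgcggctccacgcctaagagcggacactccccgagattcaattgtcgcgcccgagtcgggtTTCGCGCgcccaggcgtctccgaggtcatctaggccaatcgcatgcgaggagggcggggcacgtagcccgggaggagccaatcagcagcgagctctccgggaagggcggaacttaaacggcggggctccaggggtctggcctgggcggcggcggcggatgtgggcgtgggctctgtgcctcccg
Hells: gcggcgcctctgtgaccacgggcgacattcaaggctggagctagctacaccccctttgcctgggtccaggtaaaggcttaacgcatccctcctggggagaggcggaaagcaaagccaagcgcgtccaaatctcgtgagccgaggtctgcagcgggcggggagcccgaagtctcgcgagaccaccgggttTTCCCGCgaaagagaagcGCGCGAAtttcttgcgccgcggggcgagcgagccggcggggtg
Suv39h2: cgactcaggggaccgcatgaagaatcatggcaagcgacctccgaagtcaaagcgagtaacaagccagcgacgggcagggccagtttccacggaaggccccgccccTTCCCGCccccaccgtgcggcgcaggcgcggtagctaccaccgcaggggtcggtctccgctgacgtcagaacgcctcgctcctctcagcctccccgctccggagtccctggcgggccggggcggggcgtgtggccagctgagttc
Suv420h2: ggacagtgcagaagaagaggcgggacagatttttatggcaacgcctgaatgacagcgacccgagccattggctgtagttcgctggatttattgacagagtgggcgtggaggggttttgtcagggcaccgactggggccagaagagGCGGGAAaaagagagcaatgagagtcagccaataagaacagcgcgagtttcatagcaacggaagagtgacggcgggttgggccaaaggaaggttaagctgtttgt
Smarcc1: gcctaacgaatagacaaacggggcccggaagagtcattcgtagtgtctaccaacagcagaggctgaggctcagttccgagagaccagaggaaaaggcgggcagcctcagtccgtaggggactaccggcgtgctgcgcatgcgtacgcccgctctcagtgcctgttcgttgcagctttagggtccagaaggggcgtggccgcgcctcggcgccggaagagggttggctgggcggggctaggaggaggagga

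In the Hells promoter the words began 61 and 43 bases before the start. Uhrf1 had TTCCCGC 48 bases before its first start and TTCGCGC 184 bases before the downstream start. The word began 145 bases before the start of Suv39h2 and 105 bases before that of Suv420h2. Of the 24 members with both a promoter peak and an entry in the table, 9 (37.5%) held at least 1 of the words within 250 bases before to 50 after any of their starts. The share was 13.7% of the 17492 protein-coding genes with an entry, and 30.4% of the 2355 such genes with a listed promoter peak. Among the 17 members whose peaks lay only elsewhere it was 11.8%, and among 43 genes of the same families without a listed peak 16.3%. Of the 8 members with an entry and a promoter fold of at least 7.28, the upper quartile of the list, 6 held a word, against 40.8% of all 986 genes with an entry and such a peak. Those 6 were Uhrf1, Dnmt1, Suv39h1, Hells, Ezh2 and Suv420h2, and the other two were Smarcc1 and Smarcd2. The words of Dnmt1 lie at a start 7265 bp past its first RefSeq start, and that of Suv39h1 at a start 399 bp past the first. The word TTCCCGC alone was in 16.7% of the 24, in 16.6% of all genes with a promoter peak and in 6.8% of all genes with an entry. TTGGCGC was in 8.3%, 8.5% and 3.6% of these sets. The shares of members and of all genes with a promoter peak were thus near each other for these words. TTCGCGC was in 12.5%, 5.8% and 2.4%, and TTGCCGC in 12.5%, 4.9% and 2.5%, which for the members is 3 genes each. The promoters of the 24 had a median of 33 CpG dinucleotides in 300 bases, those of the 17 had 32, and those of family genes with no listed peak 29. The median was 24 for all genes with a promoter peak and 15 for all genes with an entry.

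**Figure D1:**
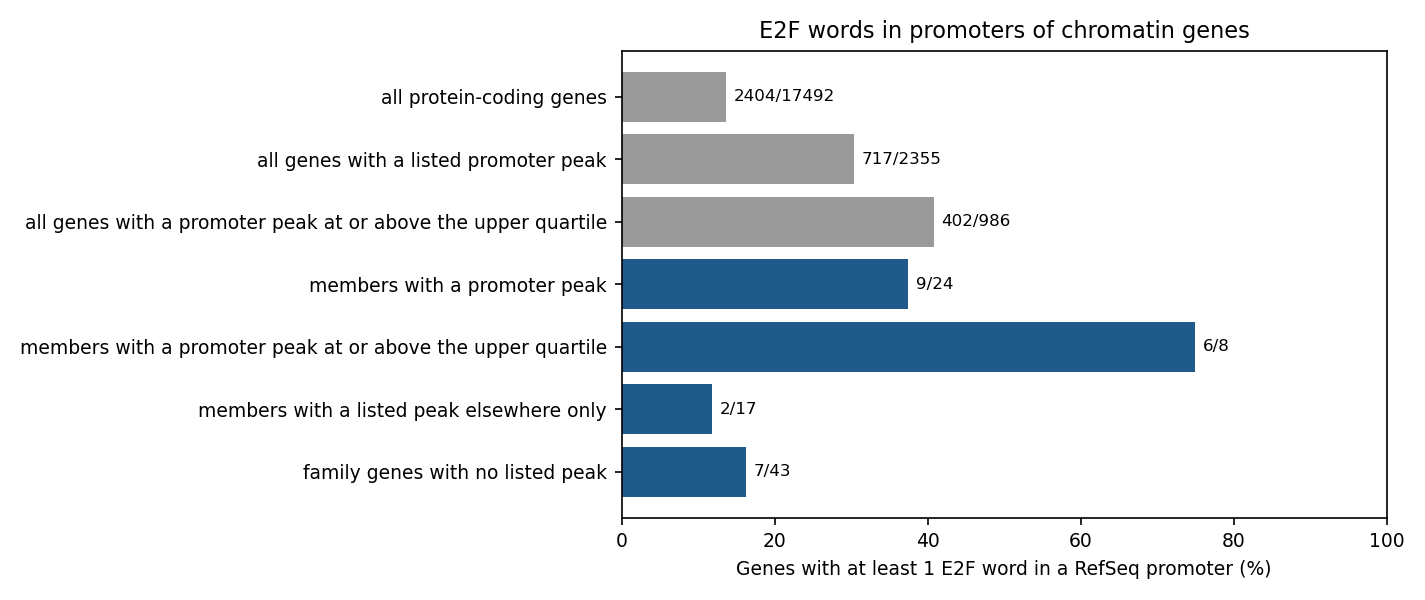
Share of genes with at least 1 of the 4 E2F words in any RefSeq promoter window (250 bases before to 50 after a start), in %, with gene counts at the bars; grey bars are all genes of the table or of the peak list and blue bars the chromatin genes. The bar for the 24 members with a promoter peak reaches 37.5% and that for the 17 with peaks elsewhere only 11.8%.

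Of the 51 members, 28 had a promoter peak and 23 had peaks elsewhere only. To count the genes of these families that were not in the list, the same symbols were sought among the protein-coding genes of RefSeq, where 109 match under their present or older names. Of these, 58 were named for a listed peak and 34 (31.2%) had it at the promoter. Over all 21900 protein-coding genes 24.7% were named for a peak and 13.1% had a promoter peak. Members as the rule finds them made up 51 of the 58 genes and 28 of the 34, or 25.7% of the 109. The other 7 stood in the list under older symbols and are given below. Genes of these families are long, with a median of 43134 bp against 17146 bp for all protein-coding genes. Members with peaks elsewhere only had a median length of 62363 bp and those with a promoter peak 39092 bp. The part of gene length in the number of peaks inside genes was not tested.

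**Figure D2:**
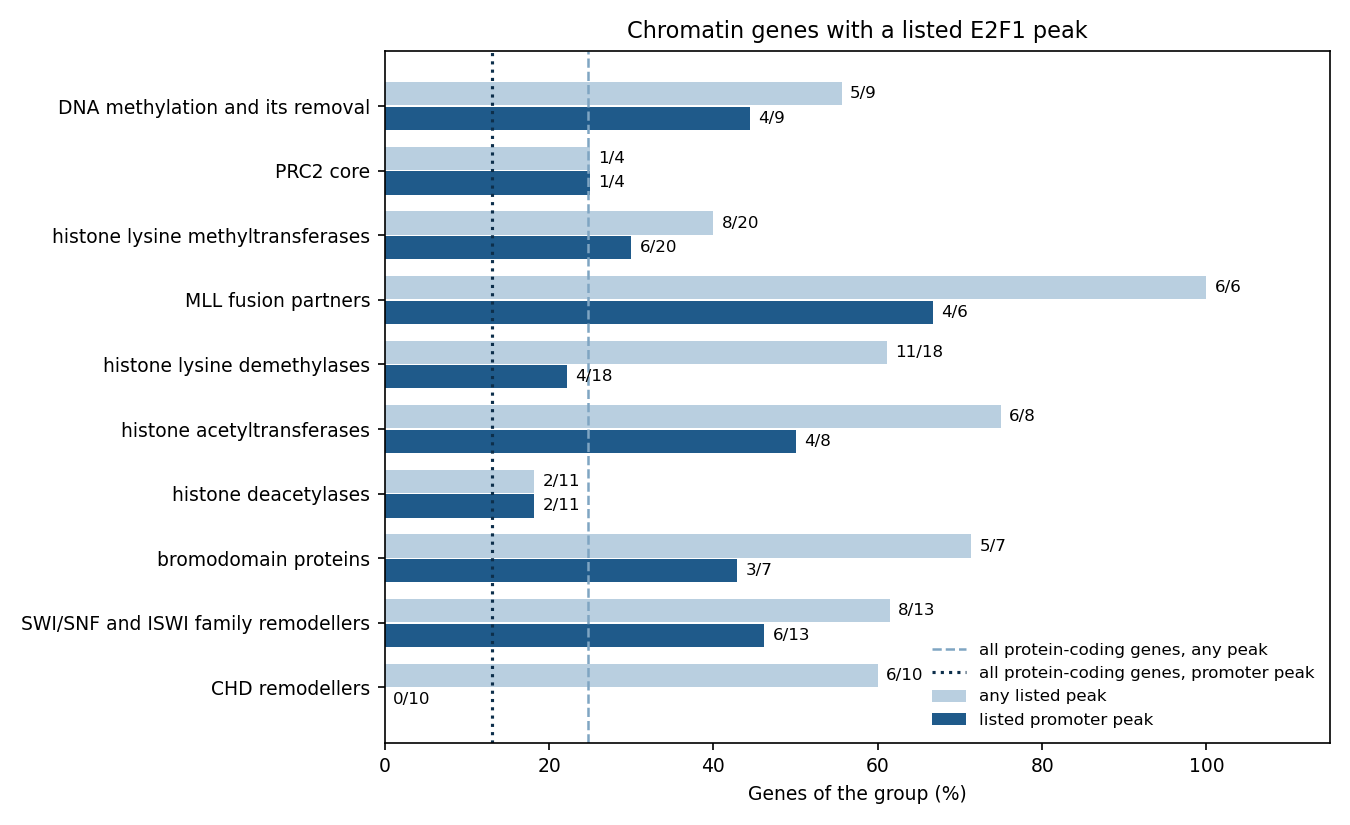
Share of the genes of each role group with any listed peak (light bars) and with a listed promoter peak (dark bars), in %, with counts at the bars, older symbols included. The dashed and the dotted line mark 24.7% and 13.1%, the shares among all protein-coding genes; the CHD remodellers had 6 of 10 genes in the list and 0 with a promoter peak.

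The median fold of the peaks at chromatin genes was 4.52, against 4.95 over all 6887 pairs, and 40 of the 67 (59.7%) lay under 4.93, the median of all peaks, against 49.6% of all pairs. The exact 95% interval of the members' share, 47.0% to 71.5%, holds that of all pairs. At promoters the median fold was 5.445 for members and 6.52 for all 2943 promoter pairs. Without the Mllt genes, which the rule takes in by prefix, the members' median was 6.495, near that of all promoter pairs. Away from promoters it was 4.12 against 4.15. The share of pairs at promoters was 41.8% (28 of 67, exact binomial 95% interval 29.9% to 54.5%), close to the 42.7% of all pairs. A fold of at least 10 was reached by 8 member peaks (11.9%), against 12.8% of all pairs. Of the member peaks 25 (37.3%) were named for another gene too, against 35.4% of all pairs. Another gene was the closest for 12 (17.9%), against 17.7% of all pairs. Not every such peak is marked below. The pairs inside genes and more than 20000 bp from the TSS made up 29.9% of members' pairs and 21.4% of all. That last value for members has an interval of 19.3% to 42.3%, which holds the value for all pairs. The intervals given here count peaks as independent, though 12 members had 2 or more peaks, so they are no test.

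**Figure D3:**
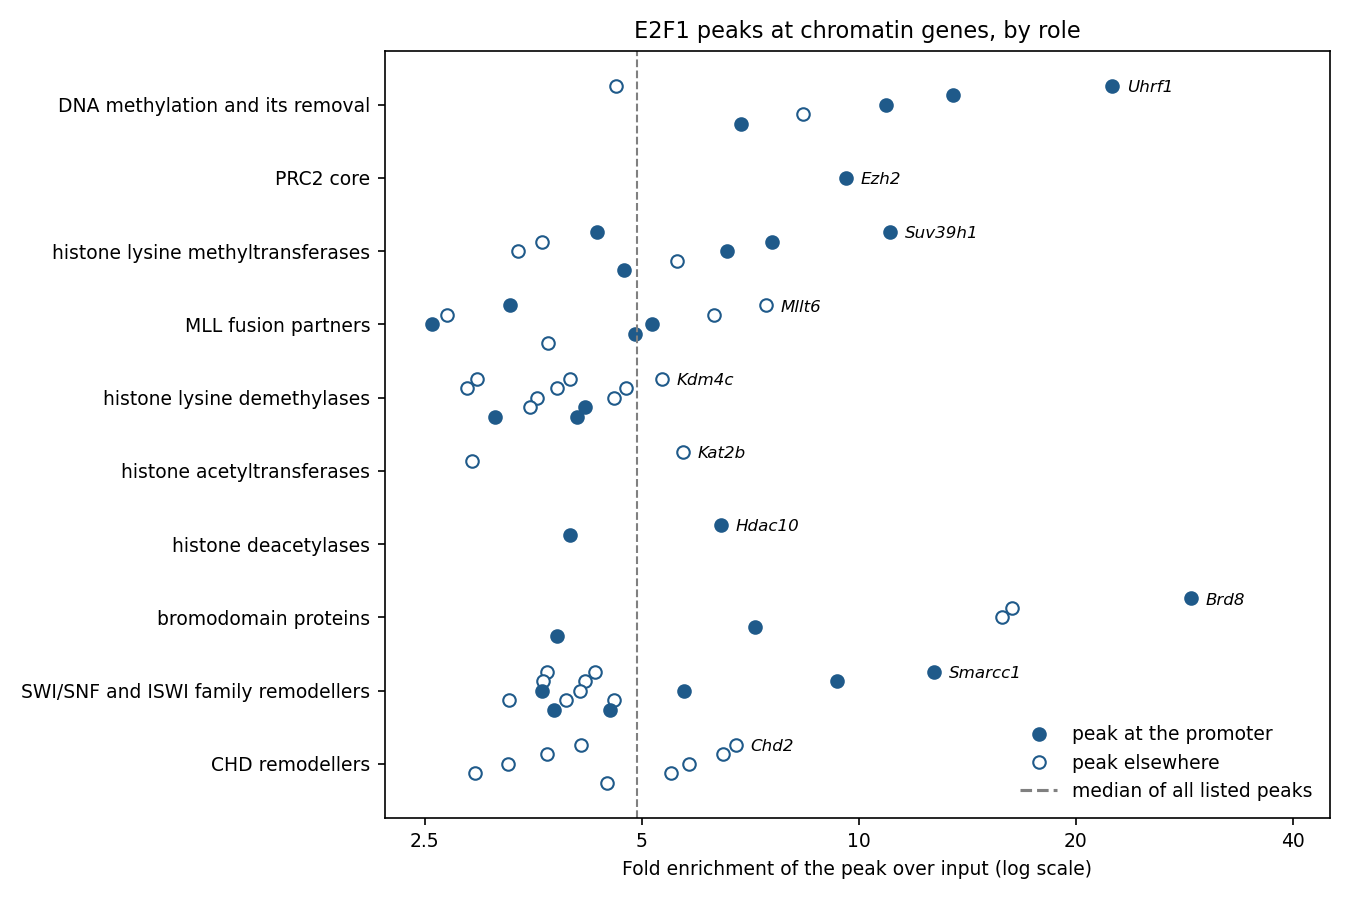
Fold enrichment over input (log scale) of each of the 67 peaks, by the role of the gene, with filled points for promoter peaks and open points for others; the dashed line is the list's median of 4.93 and the highest peak of each group carries its gene's name. Points of the DNA methylation group reach 22.46 at Uhrf1, while 11 of the 12 peaks at demethylase genes lie below the line.

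The genes of DNA methylation and its removal had the highest median promoter fold of the role groups, 12.195, from peaks at 4 of 9 genes. Uhrf1 was the strongest, at 22.46. Its 524 tags centred on chromosome 17 from 56443309 to 56443609, and the peak was also named for Arrdc5, with Uhrf1 as the closest gene. The window lay inside the gene, 565 bp from the TSS, and ranked 76 in the list by fold. Counted from the first RefSeq start, a summit at that distance (715 bp) would lie 261 bp before the downstream start. The window at Dnmt1 held its TSS, on chromosome 9 from 20757164 to 20757464, at a fold of 13.49 (186 tags). A weaker one, 1112 bp inside the same gene, reached 4.61 (119 tags). The window at Hells also held the TSS, at a fold of 10.9 (159 tags), on chromosome 19 from 39005267 to 39005567. Tet3, a dioxygenase that starts the removal of DNA methylation, had a fold of 6.86 with only 57 tags and a false discovery rate of 1.67%. The maintenance genes Uhrf1, Dnmt1 and Hells thus all had promoter peaks with folds of 10.9 or more. Of the enzymes that methylate DNA anew, Dnmt3a had a peak far from the authors' TSS. That peak may lie near a downstream RefSeq start, as described below. Dnmt3b and the regulatory gene Dnmt3l had no listed peak. Tet1 and Tet2 had none either.

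Of the PRC2 genes that the rule covers, Ezh1, Ezh2, Eed and Suz12, only Ezh2 was in the list. Partners of PRC2 outside the rule, such as Rbbp4, had listed peaks and are treated with the other Polycomb proteins below. Its window held the TSS, at a fold of 9.6 (370 tags), on chromosome 6 from 47545172 to 47545472. Ezh1, the paralog of Ezh2, and the partners Eed and Suz12 had no listed peak. The RefSeq promoter of Suz12 holds TTCCCGC before its start, and that of Ezh2 holds TTGGCGC just past its start. A gene that is not in this list may still be bound, since the list starts at a score of 50 and its selection is not described.

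Histone methyltransferases of the Suv group followed. Suv39h1, which methylates histone H3 in heterochromatin, had a fold of 11.06 on only 88 tags, over its TSS on chromosome X from 7651608 to 7651908. Its paralog Suv39h2 had a fold of 6.56 with 174 tags, inside the gene 594 bp from the TSS, and a second peak 14856 bp upstream with a fold of 3.64. The first of these peaks was also named for Dclre1c and the second for Hspa14. Suv420h2, which methylates histone H4 in heterochromatin, reached 7.59 (263 tags) with the window 67 bp upstream of its TSS, on chromosome 7 from 4691349 to 4691649. Thus 3 of the Suv genes had promoter peaks, while Suv420h1, now Kmt5b, was not listed. In the Set1 and MLL branch, which includes methyltransferases of histone H3, Wbp7, now Kmt2b, had a promoter fold of 8.01 with 68 tags. Setd1a had a promoter fold of 4.34 with 208 tags. Setd1b had 5.59 with 414 tags, but its window lay 1067 bp upstream, outside the limit used here, though the authors class it as a promoter peak. Mll3 had a fold of 3.37 at 123557 bp inside the gene. Mll1, the Kmt2a gene, and Kmt2d and Kmt2e were not in the list. Setd6, which methylates non-histone proteins, had a promoter fold of 4.73. Of the 20 methyltransferase genes 6 had a promoter peak, and Setd2, Setd3, Setd4, Setd5, Setd7, Setdb1, Setdb2 and Kmt5a had no listed peak.

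The prefix Mll also took in Mllt genes, which are named for their fusions with MLL in leukaemia and do not code for methyltransferases. All 6 of them were in the list. Promoter folds were 5.17 at Mllt3, 4.9 at Mllt1, 3.28 at Mllt11 and 2.56 at Mllt10, the lowest promoter fold of any member. Mllt1 and Mllt3 code for readers of acylated histones in the super elongation complex. The Mllt11 peak also lay at the promoter of Cdc42se1. Mllt10 had a further peak 7127 bp upstream with a fold of 3.71, closer to 2810030E01Rik. Mllt6 had a fold of 6.29 at 2566 bp upstream and 7.44 at 530 bp past its end. That second peak was closer to Cisd3, at whose promoter it lay. Mllt4, the gene of the cell junction protein afadin, had a fold of 2.68 at 76627 bp inside the gene.

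Demethylase genes were often listed but weakly. Of 18 genes 11 had a peak and 4 a promoter peak. The 3 promoter folds of members were 4.17 at Kdm4d, 4.07 at Kdm3a and 3.13 at Kdm1b. The Kdm4d peak also held the promoter of Cwc15, which was the closer gene. Kdm3a, an H3 demethylase induced by hypoxia, had 421 tags at this low fold, in a region of 3414 bp. Kdm5a, which binds the retinoblastoma protein and removes methyl groups from active promoters, had 3 peaks with folds of 3.82, 2.95 and 2.86. The strongest lay 1152 bp upstream and so just outside the limit for promoters, though the authors class it as a promoter peak. The others lay 63545 and 16955 bp inside the gene, the one at 16955 bp closer to Ccdc77. Kdm4c had the highest fold of the group, 5.33, at 9180 bp inside the gene. The peaks of Kdm5b (fold 4.76), Kdm2b (4.58), Kdm5c (3.97), Kdm4a (3.58) and Kdm3b (3.5) also lay inside the gene, that of Kdm4a closer to St3gal3. Kdm1a, Kdm2a, Kdm4b, Kdm5d, Kdm6a, Kdm6b and Kdm7a had no listed peak.

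Deacetylase genes were listed least often apart from the symbols that match by prefix only. Of 11 genes, Hdac10 had a promoter fold of 6.43 with 76 tags and Hdac5 one of 3.98 with 89 tags. The class I genes Hdac1, Hdac2, Hdac3 and Hdac8, which code for nuclear corepressor enzymes, had no listed peak, nor had Hdac4, Hdac6, Hdac7, Hdac9 and Hdac11. Both shares, 2 of 11 or 18.2% for promoter peaks and for any peak, lie near those of all protein-coding genes.

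For acetyltransferases the symbols of the file decide what the rule finds. Kat2b, which codes for the coactivator PCAF, was the only member, with folds of 5.7 at 88255 bp and 2.91 at 2282 bp inside the gene. The first of these was closer to Sgol1. Enzymes of the MYST class stood in the list as Myst1, Myst2, Myst3 and Myst4 and are now named Kat8, Kat7, Kat6a and Kat6b. All had promoter peaks, with folds of 5.2 at Myst1, 4.06 at Myst2, 3.86 at Myst3 and 5.78 at Myst4. With them 4 of 8 acetyltransferase genes had a promoter peak, while Kat2a and Kat5 had no listed peak. The further genes under older symbols, beside Wbp7, were Jmjd5, now Kdm8, with a promoter fold of 4.8, and Csrp2bp, now Kat14, with 4.19 at 33703 bp inside the gene.

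Bromodomain proteins read acetylated histones, and their genes held 3 of the 4 highest folds among members. The highest was at Brd8, a subunit of the TIP60 acetyltransferase complex, at 28.89 (644 tags), on chromosome 18 from 34784407 to 34784707, at rank 33 of the list. Its window lay 151 bp upstream of Brd8, and the list gives Kif20a, a kinesin of cell division, as the closer gene. Which of the genes it serves cannot be told apart by position. Brd3 reached 16.31 (262 tags) at 31350 bp inside the gene, on chromosome 2 from 27331532 to 27331832. Brd2 had 15.79 with 204 tags at 2711 bp inside the gene, on chromosome 17 from 34256251 to 34256551. This peak was also named for H2-DMa. The peaks of Brd3 and Brd2 were the strongest member peaks outside promoters. Brd9, a subunit of a SWI/SNF complex, had a fold of 7.18 with 83 tags over a TSS, and the same window held the TSS of Trip13. Brd1 and Brd7 had no listed peak.

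In the SWI/SNF and ISWI family 6 of 13 genes had a promoter peak. Smarcc1, a core scaffold subunit, reached 12.71 (177 tags) over its TSS, on chromosome 9 from 110034329 to 110034629. Smarcd2 had 9.32 with 116 tags over its TSS, on chromosome 11 from 106134278 to 106134578. The ATPase genes were weaker, with 4.52 at Smarca2 (BRM) and 3.78 at Smarca4 (BRG1). Smarcad1, a remodeller of replicating chromatin, had 5.72 over its TSS and Smarce1 3.63. Several of these genes had further peaks inside the gene. Smarca2 had 2 more with folds of 4.17 and 3.7, and Smarcad1 had 4.31 at 23976 bp and 3.27 in its 3' untranslated region. Smarca5, the ISWI ATPase, had 3 peaks at 25299 to 39307 bp inside the gene with folds of 3.65 to 4.57, all of them closer to Frem3. Smarcc2, the paralog of Smarcc1, had 4.1 at 30177 bp inside the gene, closer to Myl6. Smarca1, Smarcal1, Smarcb1, Smarcd1 and Smarcd3 had no listed peak.

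The CHD remodellers had no promoter peak among 10 genes. Of these, 6 were in the list with 9 peaks. Folds were highest at Chd2, with 6.75 at 16723 bp upstream and 4.47 at 85684 bp inside the gene. Chd3, an ATPase of the NuRD corepressor, had 6.48 at 2070 bp past its end. Chd9 had 5.82 and 3.26 inside the gene at 173472 and 63927 bp, the weaker one closer to Gm6658. Chd8 had 5.49 and 3.7 at 6646 and 19956 bp upstream, Chd1l 4.12 and Chd1 2.94 inside the gene. Chd4, the other main ATPase of NuRD, and Chd5, Chd6 and Chd7 had no listed peak. With promoters widened to 5000 bp no CHD gene was added, since the nearest window to a TSS lay 6646 bp away. These distances run to the authors' TSS, and upstream peaks were not set beside other RefSeq starts.

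**Figure D4:**
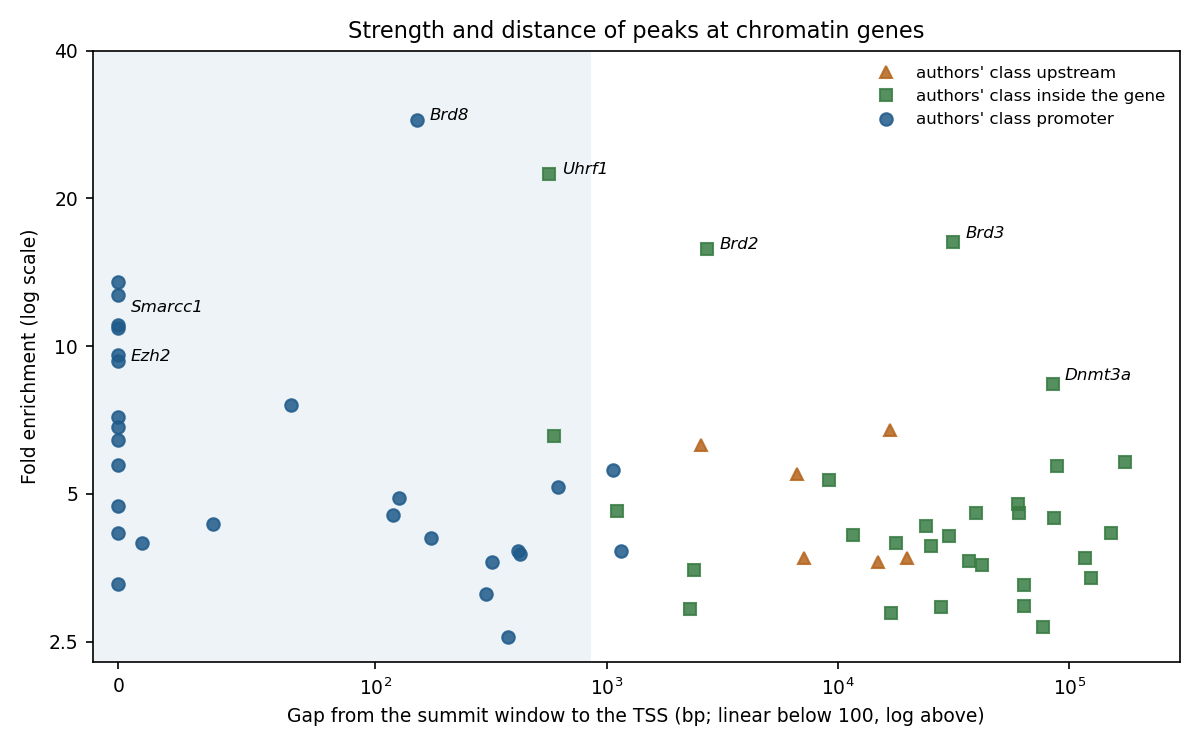
Fold enrichment (log scale) of the member peaks against the gap in bp from the summit window to the TSS (linear below 100, log above), by the authors' class; peaks past a gene's end are left out and the shaded band marks promoter peaks, with a gap of at most 850 bp. Brd3, Brd2 and Dnmt3a stand above the other peaks outside the band, with folds of 16.31, 15.79 and 8.38.

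The strong peaks far from the TSS were set beside the other starts that RefSeq gives for the same genes. The authors' TSS was taken to be the outermost start of the promoter table, which the sources used here do not state. This does not hold for every gene. Judged by the positions of Kdm4d on the same chromosome in both builds, the Dnmt1 window over the TSS falls at downstream starts. These lie 6909 and 7265 bp past the first. The summit at Dnmt3a lay 84714 bp past the authors' TSS, and RefSeq has a start 84764 bp past the first, a difference of 50 bp. Its peak had a fold of 8.38 on 68 tags, on chromosome 12 from 3891091 to 3891391. At Kdm4c the summit lay 9330 bp and a further start 9382 bp past the first, a difference of 52 bp. The Brd2 summit lay at 2861 bp and a start at 2707 bp, a difference of 154 bp. Such a peak would count as a promoter peak if the downstream start were used. The sequences before these starts of Dnmt3a (chr12:3891494-3891743, plus strand) and Brd2 (chr17:34119901-34120150, minus strand), shown as the strongest cases, hold none of the 4 words.
Dnmt3a, downstream start: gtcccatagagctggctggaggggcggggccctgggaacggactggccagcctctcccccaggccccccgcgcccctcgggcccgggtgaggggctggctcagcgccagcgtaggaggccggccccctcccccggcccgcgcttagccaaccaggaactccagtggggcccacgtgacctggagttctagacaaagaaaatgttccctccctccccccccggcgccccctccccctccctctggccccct
Brd2, downstream start: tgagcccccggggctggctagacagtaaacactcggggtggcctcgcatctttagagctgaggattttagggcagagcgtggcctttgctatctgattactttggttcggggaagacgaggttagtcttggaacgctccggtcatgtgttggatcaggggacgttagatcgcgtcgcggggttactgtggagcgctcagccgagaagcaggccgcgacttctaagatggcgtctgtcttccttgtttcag

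Of the 28 member peaks inside genes and away from promoters, 9 could be compared with a further start more than 1000 bp past the first, and 3 of the 9 (33.3%) lay within 500 bp of it. Dnmt1 is among the 9 but not among the 3, and its comparison rests on an outermost start that its promoter peak does not match. Over the whole list 54 of 392 such pairs (13.8%) lay within 500 bp of a further start. The median fold was 5.615 in those 54 and 3.97 in the rest. For Brd3 the promoter table has 1 start, which lies 32259 bp inside the outer edge of the RefSeq gene. The summit lay 31500 bp past the authors' TSS, 759 bp from that start if the authors' TSS is the outer edge. Counted from the outer edge of the gene, the difference was 53 bp for Brd2 and 52 bp for Kdm4c, but 5471 bp for Dnmt3a. The match at Dnmt3a therefore rests on which start the authors used.

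Other chromatin genes, 179 in 11 lists made by related function, were examined for comparison. Of them 50 (27.9%) had a promoter peak, against 31.2% of the 109 family genes and 13.1% of all protein-coding genes. The median fold was 7.58, against 5.445 for members' promoter peaks (6.495 without the Mllt genes) and 6.52 for all promoter pairs. Among the genes named below, the promoter peaks of Asf1b, Mbd4, Rbbp4, Ino80e, Yeats4, Bcl7b, Tada2b, Jmjd6 and Trim28 were also named for another gene. The histone chaperones had 8 of 14, with folds of 17.53 at Asf1b, 14.69 at Anp32e and 10.18 at Chaf1a, a subunit of the factor that assembles nucleosomes on replicated DNA. In the list of NuRD and methyl-DNA binding proteins 8 of 15 had a promoter peak, led by Mbd4 with 10.37, Zbtb33 with 8.78 and Mta2 with 7.93. Other Polycomb proteins had 6 of 26, with 15.35 at Rbbp4, a histone-binding partner of PRC2, 11.74 at L3mbtl2 and 7.44 at Phf19. The remodeller partners of INO80, SWR1 and ISWI had 6 of 24, with 13.53 at Ino80e, 8.01 at Baz1b and 7.65 at Yeats4. BAF subunits outside the Smarc names had 4 of 15, with 7.93 at Bcl7b, 7.27 at Arid1a and 4.74 at Actl6a.

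Sirtuins and corepressors had 5 of 20, with 7.94 at Sap130, 7.76 at Ing1 and 7.39 at Sap18. The other acetyltransferases and scaffolds had 4 of 18, with 13.13 at Hat1, 8.96 at Msl3 and 7.73 at Tada2b. Other lysine methyltransferases and COMPASS subunits had 3 of 20, namely Men1 with 15.27, Smyd3 with 10.27 and Paxip1 with 8.55. Arginine methyltransferases had 2 of 9, at Prmt1 with 11.85 and Prmt5 with 5.66. Other demethylases had 2 of 9, at Jmjd6 with 4.67 and Phf8 with 4.58, and heterochromatin readers 2 of 9, at Trim28 with 8.42 and Trim24 with 4.89. Folds of at least 10 were reached at 12 of the 50 promoters, and at 6 of the 28 promoters of members. The share of all promoter peaks with such a fold was not counted. A promoter fold of at least 7.28 was reached by 9 of the 28 members, against 1203 of all 2866 protein-coding genes with a promoter peak.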

How the data were processed

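The members and gene lists were chosen with earlier results of these data known. Reads were aligned with Bowtie2 (2.1.0) to mm9 (NCBIM37), as listed in the submitters' processing notes, and MACS called the peaks, per the file headers. The sources used here do not give the caller's settings, the rules of the list or the way replicates were joined. The deposited table gives a tag count per region, a pileup height (signal), the authors' fold (a ratio), a score of 10 times the negative log10 of p, and a false discovery rate in percent. All are values of single peaks, used only within this list. The depth of the libraries is unknown.

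The authors' distance runs from the 301 bp summit window to the TSS, 0 where it holds the TSS, so a promoter peak has a gap of at most 850 bp. For peaks past a gene's end it runs to that end and was left out of distances. Of 5587 symbols 5493 were matched to RefSeq (GRCm38.p6) by symbol or unique synonym. No statistical test was run. Intervals are exact (Clopper-Pearson, scipy 1.17.1) and cover counting error over peaks only. The promoter rule, the symbol rule and the word search were tested on simulated data with known answers. Named with values are members with a fold of at least 7.28, the highest and lowest promoter fold per role, members with 2 or more peaks, the PRC2 and DNA methylation genes, and the 3 highest promoter folds of each related list. The values of 1 member are not reported here, though it is in the counts. Alternatives changed the promoter distance, the peaks and genes counted, and the Mllt genes.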

Additional observations from a re-analysis of the deposited data

How the results depend on the processing

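The count of member genes with a promoter peak ranged from 20 to 34 over 6 of the 7 alternatives tried, against 28 as reported. With a false discovery rate of at most 1% it was 14 (12.8% of 109 family genes, against 8.01% of all protein-coding genes), as fewer peaks enter. The share of member pairs at promoters was 57.1% among peaks in the upper part of the list by score (at least 94.25), where the share of all such pairs was 60.2%. It stayed between 32.8% and 53.8% under the 5 other alternatives. With a false discovery rate of at most 1% it was 53.8%, against 64.7% of all such pairs. Promoter distances of 500 and 5000 bp gave 32.8% and 52.2%, against 37.1% and 51.5% of all pairs. The median promoter fold, 5.445 as reported, rose to 9.46 with a false discovery rate of at most 1%, where weaker peaks are left out, and lay between 5.035 and 6.495 under the other alternatives. One alternative, the median over peaks for which the member is the closest gene (5.445), was added after seeing the data. No paired analysis was possible because the list is not split by replicate. For the same reason no replicate could be left out. Peaks of few tags, such as Tet3 with 57 and Dnmt3a with 68, have the least certain folds.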
